A study of Mus musculus with 24 samples.

Results

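Striated muscle contracts when calcium leaves the sarcoplasmic reticulum, the calcium store wrapped around the contractile filaments, and relaxes when calcium is pumped back. An L-type channel in the surface membrane senses voltage and faces a ryanodine receptor, the release channel, across a narrow junction that junctophilins hold together. In skeletal muscle the L-type channel opens the release channel by direct contact, whereas in heart calcium that enters through the L-type channel triggers release and the sodium-calcium exchanger then carries it out of the cell. Several of these proteins come as paralogues, with a form best known from skeletal muscle and a form best known from heart.

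The genes examined here are 10 members of this machinery, taken by name: the release channels *Ryr1* and *Ryr2*, the luminal calcium buffers *Casq1* and *Casq2*, the pump inhibitor *Pln*, the L-type channel pores *Cacna1s* and *Cacna1c*, the exchanger *Slc8a1* and the junctophilins *Jph1* and *Jph2*. All 10 were found, through 14 probes, among the 21368 genes that could be named on the array. *Cacna1s* and *Cacna1c* had a pair of probes each, *Slc8a1* had 3 and the other 7 genes had a single probe.

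Total RNA came from the heart, skeletal muscle, brain and liver of 3 wild-type (WT) and 3 homozygous *Rap1* knockin (*Rap1* KI/KI) male mice, with 1 array for each mouse and tissue and so 24 arrays in 8 groups of 3. The knockin allele carries the I312R change in RAP1, a protein of the telomere-bound shelterin complex, and the line had been backcrossed to C57BL/6N mice by the study's methods (C57BL6 in the labels). The KI/KI mice carry the allele in all tissues, the labels give no treatment, and no group holds pooled animals. Age was 5 months for WT1 and KI1 and 2 months for WT2, WT3, KI2 and KI3, and the labels do not say which skeletal muscle was taken. Since the knockin changes a single residue, the level of the *Rap1* transcript is no check of the genotype labels.

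Levels are log2 processed signals relative to the 75th percentile of the same array, so 0 is that percentile and a step of 1 is a doubling of signal. Because probes differ in brightness for equal amounts of RNA, a level is compared between arrays for the same probe and never between genes. The scanner software called 56.5% to 72.7% of the probes of an array well above background. The hearts of WT3 and KI3 shared a slide with all 6 muscles, and the other hearts lay on a slide with brains.

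The tissue labels were checked with marker lists. Over 6 cardiac genes the mean level was 6.71 to 9.09 in the hearts and -1.42 to -0.69 in the muscles, and that of 7 fast skeletal genes was 7.61 to 7.92 in the muscles and -2.71 to -1.52 in the hearts. On the muscle arrays of KI1 and KI3 some lists stood apart. The muscle of KI3 had a mean of 2.11 for 8 neuronal genes, against -3.85 to -1.47 in the other 5 muscles and 4.92 to 5.78 in the brains. The muscles of KI1 and KI3 had means of 5.81 and 3.37 for 5 slow skeletal genes, against -0.47 to 1.68 in the other 4. Over 5 neutrophil genes the mean was 3.13 in the muscle of KI1 and -4.44 to 0.07 in the other 5. In these bulk samples, fewer cells of a type and less RNA per cell cannot be told apart.

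Between WT heart and WT skeletal muscle, 9 of the 10 genes differed. *Ryr2*, *Casq2*, *Pln*, *Cacna1c* and *Slc8a1* were higher in heart, and *Ryr1*, *Casq1*, *Cacna1s* and *Jph1* were higher in muscle (limma, Benjamini-Hochberg adjusted p under 0.05 over all tested probes). The 10th gene, *Jph2*, had a difference of -1.67 with an adjusted p of 0.0588. Of 40762 probes tested in the same fit, 14.9% were called higher and 14.5% lower in heart. In the KI/KI mice, which took no part in the WT fit, 5 of the 10 genes were higher in heart and 5 lower, with *Jph2* among the latter. There, 12.7% of 41236 probes were called higher and 14.1% lower.

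**Figure D1:**
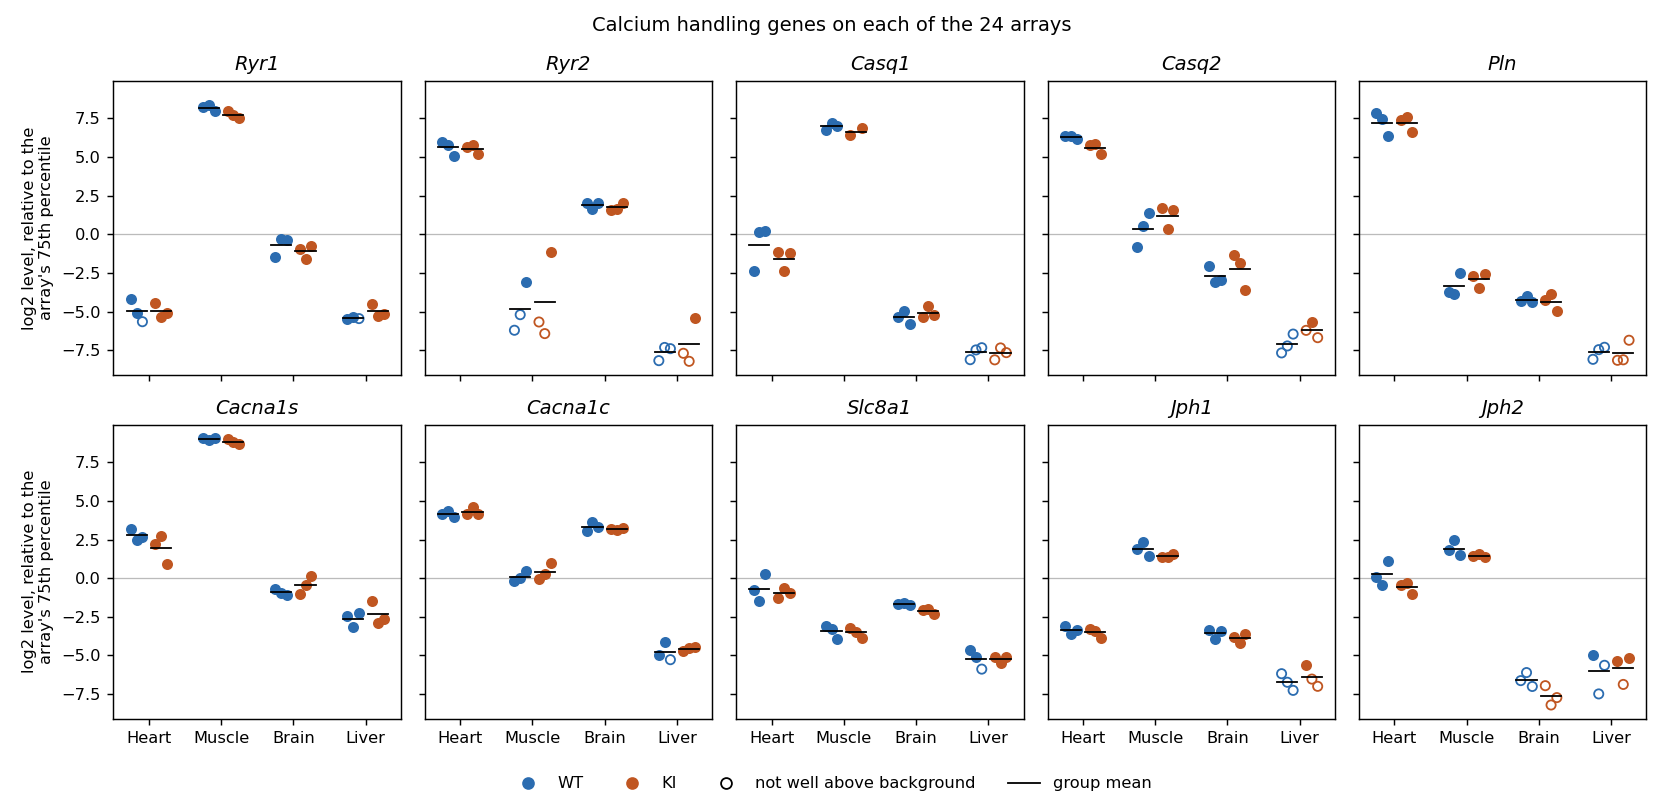
Log2 level of each gene (y axis, relative to the array's 75th percentile) in 4 tissues (x axis); each point is 1 array, blue for WT and orange for KI/KI, open where the probe was not well above background, with black lines at group means. *Ryr1*, *Casq1*, *Cacna1s* and *Jph1* are highest in muscle and *Ryr2*, *Casq2* and *Pln* in heart, while WT and KI/KI points mostly lie together.

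*Ryr1* encodes the release channel of skeletal muscle (chr7:29003340-29125179, GRCm38.p6). Its levels in the WT muscles were 8.21, 8.35 and 7.96 and in the KI/KI muscles 7.94, 7.68 and 7.52 (mice 1, 2 and 3 in this order here and below). In the WT hearts they were -4.22, -5.11 and -5.66 and in the KI/KI hearts -4.43, -5.34 and -5.07. Muscle and heart were thus separated by more than 10 log2 units on every array, near background in heart, where the probe was well above background in 2 of 3 WT and 3 of 3 KI/KI mice. Heart minus muscle was -13.17 in WT (standard error 0.39, adjusted p 4.28e-09), a 9217-fold difference, and -12.66 in KI/KI (0.31, 3.03e-09; the standard error and then the adjusted p stand in this order in later parentheses). Brain came next, with -1.48 to -0.31 in WT and -1.57 to -0.73 in KI/KI, and heart minus brain was -4.28 in WT (0.39, 2.69e-06). Heart and liver did not differ beyond their spread, at 0.43 (0.39, adjusted p 0.381).

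*Ryr2* encodes the release channel of heart, which is also expressed in neurons (chr13:11553099-12106945). Its levels were 5.99, 5.80 and 5.08 in the WT hearts and 5.63, 5.74 and 5.19 in the KI/KI hearts. In the WT muscles they were -6.21, -5.21 and -3.06, and in the KI/KI muscles -5.68, -6.43 and -1.12. The muscles of WT3 and KI3 were the only ones with the probe well above background, and they lay 2 units or more above the other 4. The heart minus muscle difference was 10.45 in WT (0.63, adjusted p 5.13e-07) and 9.93 in KI/KI (1.17, 1.31e-04). The part that the neuronal transcripts in the muscle of KI3 had in its *Ryr2* level was not tested; without that mouse the KI/KI difference was 11.74 (0.31). Single mice moved these values by more than 1.5 times on the linear scale: the WT difference was 9.57 without WT1 and 11.60 without WT3, and that of KI/KI was 9.24 without KI1 and 8.81 without KI2, all called. Brain levels were 1.57 to 2.03 over the 6 mice, below heart by 3.74 in WT (heart minus brain, 0.63, adjusted p 3.91e-04) and above muscle (muscle minus brain -6.71, 0.63, 3.76e-06). Liver was lowest: the probe was not well above background in any WT liver, and WT brain was at least 233-fold higher. WT muscle minus WT liver was called (2.81, 0.63, 0.00287), but only the muscle of WT3 was well above background, so no bound is given.

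Since these paralogues move in opposite directions between heart and muscle, the 150 bases before the annotated start of each are shown, from RefSeq on GRCm38.p6, 5′ to 3′ on the strand of the gene. Capitals mark matches, on either strand, to the E box CANNTG, the GATA core, the TATAAA box, the MEF2 motif or the CArG box.
Ryr1, chr7:29125152-29125301, minus strand: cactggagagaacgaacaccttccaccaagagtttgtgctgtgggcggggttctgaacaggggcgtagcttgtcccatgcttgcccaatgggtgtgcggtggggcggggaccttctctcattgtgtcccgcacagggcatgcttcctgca
Ryr2, chr13:12106946-12107095, minus strand: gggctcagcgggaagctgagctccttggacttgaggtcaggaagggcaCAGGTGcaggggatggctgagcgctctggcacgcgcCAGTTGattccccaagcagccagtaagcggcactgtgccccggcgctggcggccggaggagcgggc
The last bases of the *Ryr1* window lie inside the annotated span of the gene, which opens slightly upstream of this start. The *Ryr1* window held none of the 5 motifs, and that of *Ryr2* held 2 E boxes, 102 and 66 bases before the start. E boxes stood in 47.7% of all 32851 promoter windows of this length in the table.

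*Casq1* encodes the calsequestrin of fast skeletal muscle, which binds calcium inside the store (chr1:172209894-172219895). Its levels were 6.77, 7.21 and 6.98 in the WT muscles and 6.41 and 6.86 in the muscles of KI1 and KI2; on the KI3 muscle array its only spot had an outlier flag and was left out. In the hearts they were -2.39, 0.12 and 0.20 in WT and -1.18, -2.36 and -1.20 in KI/KI. All muscles lay above all hearts, and WT1 and KI2 were the lowest hearts. Heart minus muscle was -7.67 in WT (0.58, adjusted p 2.85e-06), a 204-fold difference, and -8.22 in KI/KI (0.41, 8.13e-07). Without WT1 the WT difference was -6.93, or 122-fold, and without KI2 that of KI/KI was -7.60, or 194-fold, both called. Brain followed at -5.81 to -4.64, with heart minus brain at 4.68 in WT (0.58, 3.59e-05). The probe was not well above background in any liver, and WT brain was at least 1.53-fold higher than WT liver.

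*Casq2* encodes the calsequestrin of heart and slow skeletal fibres (chr3:102086415-102146514). Its levels were 6.34, 6.33 and 6.14 in the WT hearts and 5.79, 5.84 and 5.17 in the KI/KI hearts. In the muscles they were -0.84, 0.55 and 1.35 in WT and 1.71, 0.31 and 1.55 in KI/KI, well above background on all 6 arrays. The muscles were thus spread over more than 2 units, while the WT hearts lay close together. The heart minus muscle difference was 5.92 in WT (0.51, adjusted p 7.71e-06), a 60.6-fold difference, and 4.41 in KI/KI (0.57, 2.59e-04). Without WT1 the WT difference was 5.29, or 39.1-fold, and still called. In the same 6 muscles the mean of the slow skeletal list was -0.10, 0.69 and 1.68 in WT and 5.81, -0.47 and 3.37 in KI/KI, so that the pair of muscles lowest for *Casq2*, those of WT1 and KI2, was also lowest for the list, and that of KI1 was highest for both. The muscles of WT1 and KI2 were also highest for the 5 adipocyte genes, at 3.70 and 4.59, against 0.01 to 2.15 in the others. The parts of fibre types and of adipocytes in the *Casq2* level were not tested. WT muscle lay above WT brain by 3.06 (0.51, 3.28e-04), and WT brain was at least 9.68-fold higher than WT liver, where no array was well above background.

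The calsequestrins are shown in the same way because they also run in opposite directions.
Casq1, chr1:172219896-172220045, minus strand: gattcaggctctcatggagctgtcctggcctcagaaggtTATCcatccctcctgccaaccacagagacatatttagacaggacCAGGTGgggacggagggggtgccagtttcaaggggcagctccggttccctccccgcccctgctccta
Casq2, chr3:102086265-102086414, plus strand: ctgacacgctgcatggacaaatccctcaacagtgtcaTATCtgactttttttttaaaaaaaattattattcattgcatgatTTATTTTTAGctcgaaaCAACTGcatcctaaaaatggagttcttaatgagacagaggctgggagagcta
Each window held 1 E box, 67 bases before the start in *Casq1* and 52 in *Casq2*, and 1 GATA core. The *Casq2* window held the only MEF2 match among the members, 69 bases before the start; 1.67% of all windows held that motif.

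*Pln* encodes phospholamban, which inhibits the calcium pump of heart and slow fibres until it is phosphorylated (chr10:53337686-53345999). Its levels were 7.83, 7.46 and 6.38 in the WT hearts and 7.36, 7.61 and 6.64 in the KI/KI hearts. In the muscles they were -3.76, -3.85 and -2.50 in WT and -2.68, -3.47 and -2.56 in KI/KI. No heart came near a muscle, and within either tissue the genotypes overlapped. Heart minus muscle was 10.59 in WT (0.44, adjusted p 3.27e-08), a 1541-fold difference, and 10.11 in KI/KI (0.44, 1.42e-07). Without WT3 the WT difference was 11.45, or 2790-fold. WT muscle minus WT brain was 0.86 (0.44, adjusted p 0.113), not called although all WT muscles lay above all WT brains. In KI/KI this difference was called, at 1.47 (0.44, 0.0141). No liver had the probe well above background, and WT brain was at least 3.37-fold and WT heart at least 9425-fold higher than WT liver. Its promoter window is given because *Pln* lay higher in every heart than in any muscle, in both genotypes.
Pln, chr10:53337536-53337685, plus strand: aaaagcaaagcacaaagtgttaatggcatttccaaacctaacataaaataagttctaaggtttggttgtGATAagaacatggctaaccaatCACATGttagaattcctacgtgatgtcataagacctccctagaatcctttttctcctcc
It held 1 E box, 59 bases before the start, and 1 GATA core 81 bases before it.

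*Cacna1s* encodes the pore of the skeletal L-type channel, the voltage sensor that touches the release channel (chr1:136052806-136119822). Its levels were 9.04, 8.91 and 9.05 in the WT muscles and 8.97, 8.84 and 8.69 in the KI/KI muscles. In the hearts they were 3.16, 2.47 and 2.67 in WT and 2.21, 2.75 and 0.89 in KI/KI, well above background on all 6 arrays, with KI3 the lowest. The heart minus muscle difference was -6.24 in WT (0.28, adjusted p 5.46e-08), a 75.4-fold difference, and -6.88 in KI/KI (0.50, 4.64e-06). The other probe gave -6.79 in WT (0.55, 4.76e-06) and -7.54 in KI/KI (0.52, 3.13e-06). The order of the WT tissues was muscle, heart, brain and liver, and each step was called, with heart minus brain at 3.68 (0.28, 5.99e-07) and brain minus liver at 1.70 (0.28, 2.02e-04). The window before its start is shown because both of its probes were called and favoured muscle.
Cacna1s, chr1:136052661-136052810, plus strand: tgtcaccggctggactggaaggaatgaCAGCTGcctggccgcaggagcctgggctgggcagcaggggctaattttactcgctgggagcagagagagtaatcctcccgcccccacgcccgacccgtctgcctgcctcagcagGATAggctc
It held 1 E box, 123 bases before the start, and 1 GATA core. Of the 10 genes, 9 had 12 windows, with 3 for *Cacna1c* and 2 for *Jph2*. Of the 12, 8 held an E box and 8 a GATA core, against 47.7% and 35.7% of all windows. The *Jph2* windows overlap and share their matches, and by gene 7 of 9 held an E box and 7 a GATA core. The TATAAA box and the CArG box stood in 0 of the 12, against 7.57% and 0.916%. These matches are letters in a window and were set against no binding data.

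*Cacna1c* encodes the pore of the cardiac L-type channel, also common in brain and smooth muscle (chr6:118587240-119197384). Its levels were 4.18, 4.32 and 3.94 in the WT hearts and 4.13, 4.61 and 4.12 in the KI/KI hearts. In the muscles they were -0.20, -0.01 and 0.46 in WT and -0.08, 0.30 and 0.95 in KI/KI. Hearts and muscles were apart on every array by more than 2 units, with KI3 the highest muscle. Heart minus muscle was 4.06 in WT (0.31, adjusted p 3.19e-06), a 16.7-fold difference, and 3.90 in KI/KI (0.26, 2.59e-06). The dimmer probe was not well above background in any muscle, and heart was at least 7.90-fold higher in WT and at least 7.73-fold in KI/KI. On the brighter probe brain levels of 3.04 to 3.61 came close to heart: heart minus brain was 0.82 in WT (0.31, adjusted p 0.0439). The dimmer probe, well above background in all hearts and brains, set them further apart. It gave 2.42 in WT (0.33, 7.81e-05) and 2.39 in KI/KI (0.38, 3.16e-04). The smooth muscle list, whose cells also use this channel, had means of 2.84 to 5.69 in the hearts and 2.16 to 3.06 in the muscles, and its part in the *Cacna1c* levels was not tested. The muscle of KI3 had a mean of 2.11 for the neuronal list, against -3.85 to -1.47 in the other muscles. The part of those transcripts in its *Cacna1c* level was not tested either.

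*Slc8a1* encodes the main sodium-calcium exchanger of heart (chr17:81373105-81738387). Its brightest probe gave -0.80, -1.46 and 0.25 in the WT hearts and -1.30, -0.66 and -0.94 in the KI/KI hearts. In the muscles it gave -3.12, -3.28 and -3.91 in WT and -3.21, -3.46 and -3.84 in KI/KI. The hearts all lay above the muscles. The heart minus muscle difference was 2.77 in WT (0.43, adjusted p 5.95e-04), a 6.81-fold difference, and 2.54 in KI/KI (0.24, 2.74e-05). Without WT3 the WT difference was 2.07, or 4.20-fold, and still called. The 3 probes disagreed in size. A probe for NM_011406 was not well above background in any muscle, with heart at least 6.30-fold higher in WT and at least 5.81-fold in KI/KI, whereas a probe for the non-coding transcript NR_104580 gave 0.52 in WT (0.46, adjusted p 0.441) and 1.54 in KI/KI (0.46, 0.0291). On the brightest probe WT heart minus WT brain was 1.00 (0.43, adjusted p 0.0697), not called although all WT hearts lay above all WT brains. The same difference was called in KI/KI (1.13, 0.24, 0.00207). In WT the probe for NM_011406 gave 2.00 (0.41, 0.00155) and that for NR_104580 0.54 (0.46, 0.338). Muscle minus brain on the brightest probe was -1.77 in WT (0.43, 0.00418).

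*Jph1* encodes the junctophilin of skeletal muscle, which ties the surface membrane to the store (chr1:16942104-17097922). Its levels were 1.88, 2.32 and 1.42 in the WT muscles and 1.39, 1.37 and 1.59 in the KI/KI muscles. In the hearts they were -3.11, -3.63 and -3.36 in WT and -3.28, -3.39 and -3.84 in KI/KI. The tissues were far apart, and heart was level with brain, where the 6 values were -4.21 to -3.37. Heart minus muscle was -5.24 in WT (0.33, adjusted p 6.23e-07), a 37.9-fold difference, and -4.95 in KI/KI (0.33, 2.51e-06). WT heart and WT brain did not differ beyond their spread (0.20, 0.33, adjusted p 0.633), and WT brain was at least 5.32-fold higher than WT liver.

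*Jph2* encodes the junctophilin of heart, which skeletal muscle expresses too (chr2:163336242-163398049). Its levels were 0.08, -0.46 and 1.13 in the WT hearts and -0.47, -0.29 and -1.05 in the KI/KI hearts. In the muscles they were 1.79, 2.44 and 1.51 in WT and 1.44, 1.57 and 1.39 in KI/KI. All 6 muscles were above all 6 hearts, so that the gene ran with *Jph1* and not towards heart, although the heart of WT3 came close to the lowest muscle. The heart minus muscle difference was -1.67 in WT (0.60, adjusted p 0.0588) and -2.07 in KI/KI (0.45, 0.00617), a 4.19-fold difference in the latter. The WT value was -2.31 without WT3 and -1.05 without WT2, neither called. The KI/KI call was lost without KI1 (-2.15, adjusted p 0.0644) and without KI3 (-1.88, 0.0552). The probe was not well above background in any brain, and WT heart was at least 97.3-fold and WT muscle at least 310-fold higher than WT brain.

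**Figure D2:**
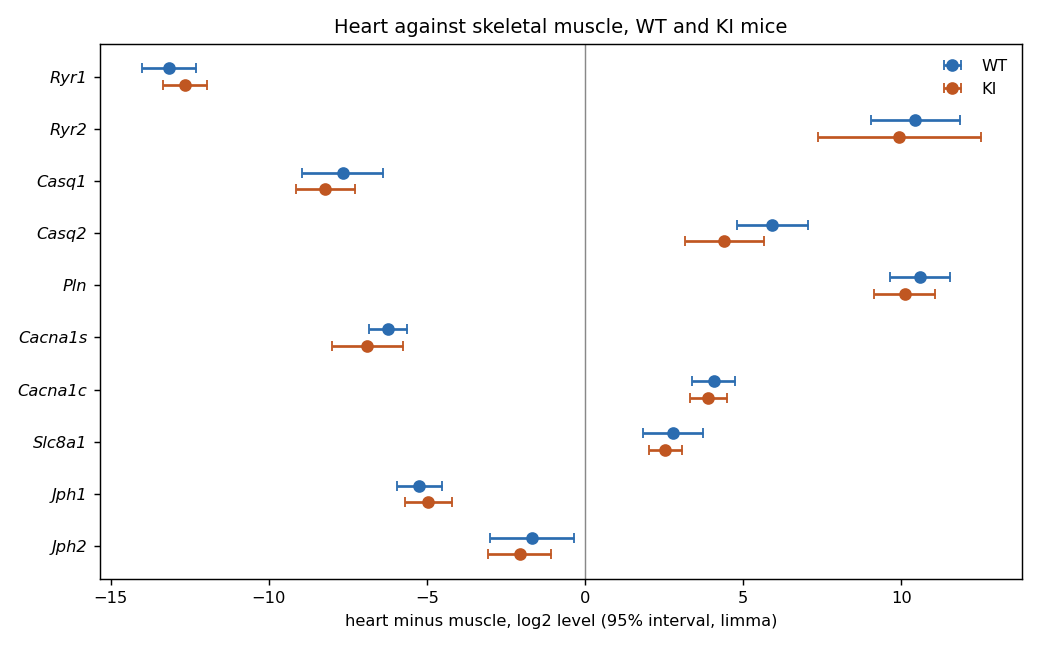
Heart minus muscle for each gene (x axis, log2 level, with the 95% interval of the limma fit), in WT (blue) and KI/KI (orange) mice. The genes fall on either side of 0, from -13.17 for *Ryr1* to 10.59 for *Pln* in WT, and the intervals of the genotypes overlap for every gene.

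On the slide that held all muscles and the hearts of WT3 and KI3, the differences had the same sign for all 10 genes in both genotypes, with a single heart in each. There *Ryr1* was at -13.83 in WT and -12.79 in KI/KI, *Ryr2* at 9.90 and 9.60, *Casq2* at 5.79 and 3.98, and *Jph2* at -0.79 and -2.52. *Pln* was at 9.75 and 9.54. For *Pln* and *Ryr2* the hearts of WT3 and KI3 were the lowest of their genotype, and the part of the slide in these levels was not tested.

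The remaining WT tissue pairs share arrays with this comparison and with each other. Heart was higher than brain for 7 of the 10 genes and lower for 1, *Ryr1* (32.4% and 23.6% of all probes). Heart was higher than liver for 9 and lower for 0 (24.6% and 26.4%), all 10 differences being positive. Muscle was higher than brain for 6 and lower for 3, *Ryr2*, *Cacna1c* and *Slc8a1* (34.6% and 24.4%). Muscle was higher than liver for all 10 (27.5% higher and 27.9% lower among all probes). For *Ryr2* that call rests in part on background signal, with 1 of 3 WT muscles and 0 of 3 WT livers well above background. Brain was higher than liver for 9 and lower for 0 (28.6% and 39%), and *Jph2*, well above background in no WT brain and in 1 of 3 WT livers, was not called.

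The paralogue pairs can also be read within each array, where scaling between arrays drops out. For *Ryr1* over *Ryr2*, the log2 ratio of the signals was higher in muscle than in heart of the same mouse by 24.63, 24.46 and 21.77 in WT and by 23.69, 25.19 and 18.91 in KI/KI. These values rest in part on background signal, since *Ryr2* was not well above background in the muscles of WT1, WT2, KI1 and KI2, nor *Ryr1* in the heart of WT3. With such signals raised to the lowest level well above background on the same array, where they lay below it, the shifts were at least 23.48, 24.29 and 21.37 in WT and at least 23.69 and 23.87 in KI1 and KI2, beside 18.91 in KI3. The mean was then at least 22.6 (SD 2.08, n = 6), against 23.1 as measured, and either way the exact sign-flip permutation p was 0.03125, the smallest that 6 mice allow (two-sided, 0.0417 after adjustment over 4 pairs).

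For *Casq1* over *Casq2* the shift was 16.35, 12.86 and 11.57 in WT and 11.66 and 14.75 in KI1 and KI2. The mean was 13.4 (SD 2.07, n = 5, exact permutation p 0.0625, the smallest that 5 mice allow). For *Cacna1s* over *Cacna1c* the 6 shifts were tight, from 9.86 to 10.98, with a mean of 10.5 (SD 0.447, n = 6, exact permutation p 0.03125, adjusted 0.0417). For *Jph1* over *Jph2* they were smaller, from 2.76 to 4.40, with a mean of 3.23 (SD 0.599, n = 6, exact permutation p 0.03125, adjusted 0.0417). Every mouse with a value shifted towards the skeletal form in muscle, in each of the 4 pairs.

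**Figure D3:**
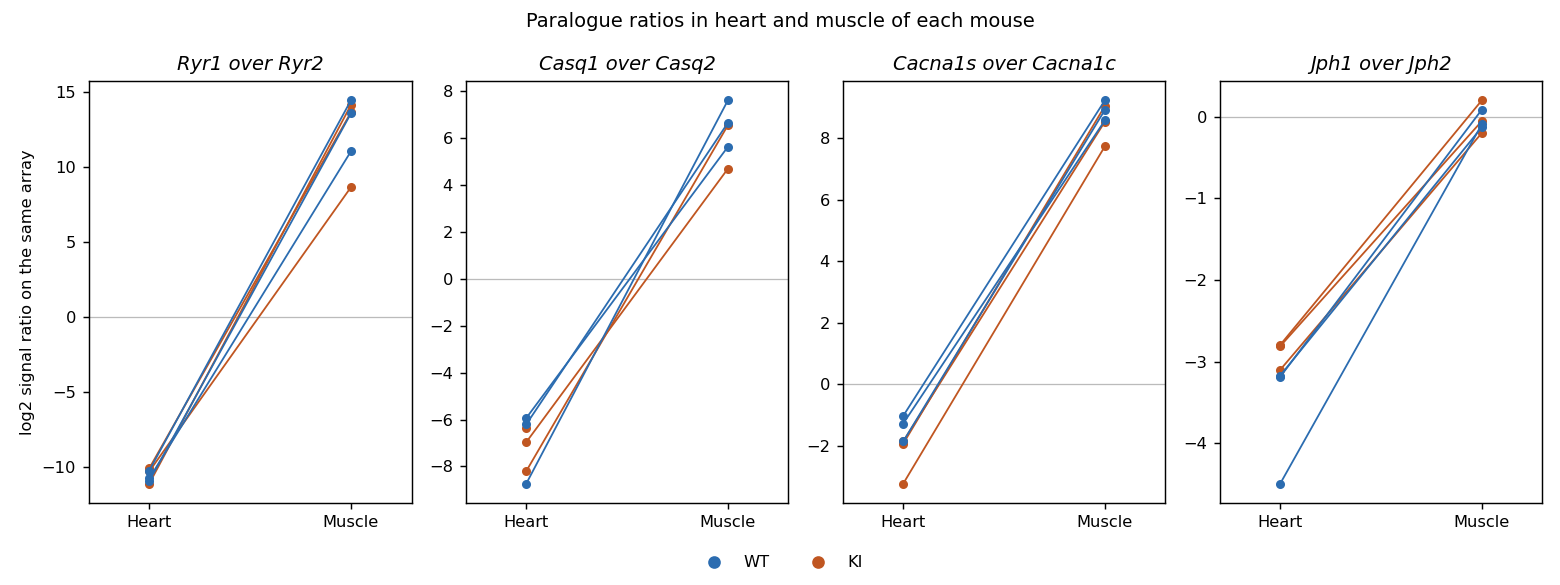
Log2 ratio of the signals of the skeletal over the cardiac paralogue on the same array (y axis, its own range in each panel), in heart and muscle (x axis); each line is 1 mouse, blue for WT and orange for KI/KI. Only the change along a line can be read, since probes differ in brightness; it is at least 22.6 on average for *Ryr1* over *Ryr2*, where several signals were near background, and 3.23 for *Jph1* over *Jph2*.

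Between genotypes no calcium handling gene passed the test. Each gene was counted by its brightest probe. By limma within each tissue, 0 of 10 genes tested in heart, 0 of 9 in muscle, 0 of 9 in brain and 0 of 5 in liver passed an adjusted p of 0.05, and 0% of all probes did in each tissue. At an unadjusted p under 0.05 the counts were 1 in heart, 0 in muscle, 1 in brain and 0 in liver, against 7.51%, 2.48%, 2.62% and 2.13% of all probes. All KI/KI arrays lay on one side of all WT arrays for 1 gene in each tissue, against 14.7% of all probes in heart, 6.45% in muscle, 7.75% in brain and 5.85% in liver. These counts are near those shares.

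In heart that gene was *Casq2*, with 3 of 3 KI/KI hearts below all WT hearts and a KI/KI minus WT difference of -0.67 (0.25, limma p 0.0305, adjusted p 0.646). The hearts of KI1 and KI3 had means of 1.45 and 2.58 for 5 adipocyte genes. The KI2 heart, at -1.56, fell inside the WT spread of -4.86 to -1.47. KI1 and KI3 hearts also had the highest means for smooth muscle (5.69 and 5.12) and neuronal genes (-1.01 and -0.60). All other hearts, KI2 included, lay at 2.84 to 3.80 and at -2.86 to -2.30. The part of these lists in the *Casq2* difference was not tested. On the brightest probes the other 9 differences in heart were from -0.89 for *Casq1* (0.74, 95% interval -2.65 to 0.86) to 0.14 for *Cacna1c* (0.23, -0.42 to 0.69). *Cacna1s* and *Jph2* were at -0.81 (0.48) and -0.85 (0.44), *Slc8a1* at -0.29 (0.44), *Jph1* at -0.13 (0.25), *Ryr2* at -0.10 (0.31), *Pln* at -0.02 (0.44) and *Ryr1* at 0.05 (0.42). Over the 10 genes on these probes 8 differences were negative, with a median of -0.21, beside a median of -0.02 over all probes. Other probes gave -1.11 for *Cacna1s* (0.50), -0.44 for *Cacna1c* (0.26), and 0.59 (0.52) and -0.40 (0.43) for *Slc8a1*. None passed the adjusted test. The sign differed from that of the brightest probe for *Cacna1c* and for the *Slc8a1* probe at 0.59.

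In muscle the gene with its arrays apart was *Ryr1*, lower in 3 of 3 KI/KI muscles by -0.46 (0.21, limma p 0.0665, adjusted p 0.939). The junctophilins were close to it in size, with -0.42 for *Jph1* (0.26) and -0.45 for *Jph2* (0.27), while *Casq1* was at -0.35 (0.26), *Cacna1s* at -0.17 (0.18) and *Slc8a1* at -0.07 (0.28). Values above 0 were 0.84 for *Casq2* (0.61), 0.46 for *Pln* (0.43) and 0.30 for *Cacna1c* (0.32), none past the test. The slow skeletal list was at 5.81 and 3.37 in the muscles of KI1 and KI3, but lowest of all muscles in KI2, at -0.47. The neuronal list was at 2.11 in the muscle of KI3. The parts of both lists in these values were not tested. The median was -0.17, beside -0.07 over all probes. *Ryr2* was not tested in muscle, as only 2 of 6 arrays were well above background.

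In brain the gene was *Slc8a1*, with a KI/KI minus WT difference of -0.43 (0.17, limma p 0.0441, adjusted p 1.00), followed by *Cacna1s* at 0.46 (0.33). In liver it was *Ryr1* at 0.44 (0.24, limma p 0.116, adjusted p 1.00), followed by *Cacna1c* at 0.23 (0.32). Both liver probes were near background, well above it in 2 of 3 WT and 3 of 3 KI/KI livers. *Ryr1* was at -5.48 to -5.345 in the WT livers and -5.26 to -4.54 in the KI/KI livers. The 4 differences named here lie under 0.5 on the log2 scale. On other probes, all KI/KI brains also lay below all WT brains for *Cacna1c* (-0.42, 0.16, limma p 0.0388) and *Slc8a1* (-0.31, 0.19, limma p 0.154). Neither passed the adjusted test. For another *Cacna1s* probe (0.09, 0.38) and *Slc8a1* probe (-0.36, 0.31) the genotypes overlapped.

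**Figure D4:**
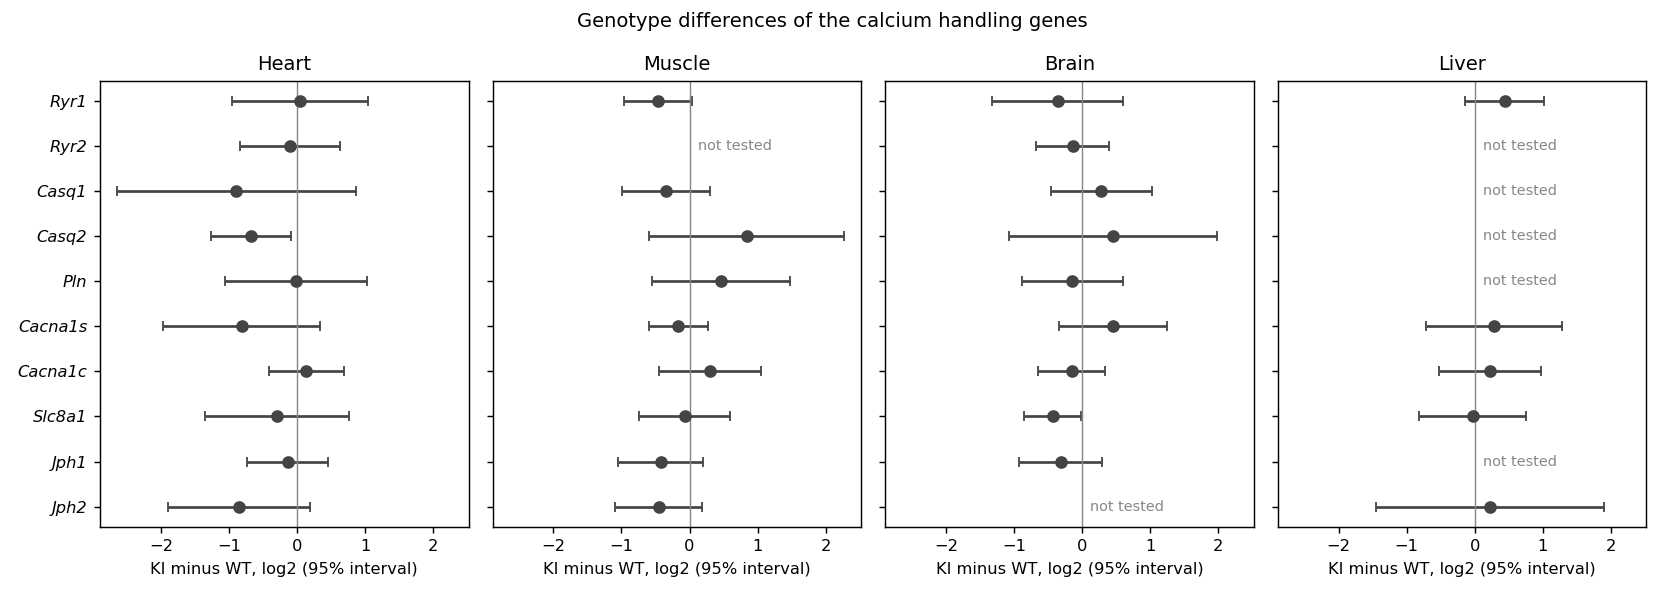
KI/KI minus WT for the brightest probe of each gene (x axis, log2 level, points with the 95% interval of the limma fit) in 4 tissues. All but 2 intervals include 0, those of *Casq2* in heart and *Slc8a1* in brain, and neither gene passed the adjusted test.

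Whether the genotype difference itself differed between heart and muscle was tested over all 24 arrays. By limma 0 of the 10 genes passed an adjusted p of 0.05 (0% of 43681 probes) and 0 had an unadjusted p under 0.05 (3.1% of all probes). The lowest p was that of *Casq2*, with a heart effect minus muscle effect of -1.51 (0.81, 95% interval -3.20 to 0.18, p 0.0762).

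The rest of the calcium pathway was taken from a list of 63 genes in 7 roles, of which 61 were named on the array and all 61 were tested. In WT, 14 were higher in heart, 27 lower and 20 were not called, where 14.9% of all probes were higher and 14.5% lower, with a median difference of -0.41 beside -0.08 over all probes. In KI/KI mice 10 were higher, 26 lower and 25 not called, where 12.7% of all probes were higher and 14.1% lower. Without WT2 the count higher in heart fell to 8, and without WT3 to 9.

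The values by role below are for WT heart minus WT muscle unless KI/KI is named. Among the release channel partners, 4 of 12 were higher in heart and 6 lower. *Jsrp1*, a protein of the skeletal junction, had a heart minus muscle difference of -8.36 (0.29, limma adjusted p 9.10e-09), and *Trdn*, which anchors calsequestrin to the release channel, was at -2.17 (0.33, 5.03e-04). *Asph*, whose short forms include junctin, was at 2.67 (0.22, 5.74e-06).

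Of the 5 pump genes, 1 was higher and 2 were lower. The pumps themselves ran in opposite directions, with *Atp2a2*, the cardiac and slow pump, at 6.76 (0.27, 2.35e-08) and *Atp2a1*, the fast skeletal pump, at -4.88 (0.31, 7.91e-07). *Mrln*, a skeletal micropeptide that inhibits the pump, was at -6.31 (0.32, 1.49e-07), the opposite direction to *Pln*.

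Among 12 L-type channel subunits and adaptors, 4 were higher in heart and 5 lower. *Cacng1*, the gamma subunit of the skeletal channel, was not well above background in any WT heart and was at least 728-fold higher in WT muscle. *Cacng6* was at -4.67 (0.23, 1.41e-07), and *Rrad*, a small GTPase that restrains L-type current, was at 5.91 (0.41, 1.34e-06).

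Of the 5 scaffold genes, *Bin1*, which shapes T tubules, was lower in heart at -5.41 (0.25, 7.43e-08). *Jph3*, whose probe was not well above background in any WT muscle, was at least 1.39-fold higher in WT heart. In the KI/KI mice its difference was -0.93 (1.52, adjusted p 0.693), not called. The other 3 scaffold genes were not called in WT, and among them *Jph4* was at -0.67 (0.47, adjusted p 0.325). Of 7 genes for extrusion 1 was higher and 2 were lower. They included the pump *Atp2b3* at -7.17 (0.60, 5.67e-06), a size that rests in part on background, as only 1 WT heart was well above it. Smaller values were those of *Slc8a2* (0.92, 0.28, 0.0266) and *Atp2b1* (-0.67, 0.23, 0.0469). In the KI/KI mice *Slc8a2* was at -0.65 (1.02, 0.680), not called, and *Atp2b1* at -0.73 (0.16, 0.00680).

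Of the 5 store-operated entry genes, 3 were lower in heart and 0 higher: *Stim1*, the sensor of store calcium, at -3.62 (0.24, 1.02e-06), *Orai1*, the channel that it opens, at -1.80 (0.23, 1.59e-04) and *Stim2* at -1.29 (0.35, 0.0160). The other 2, *Orai2* at 0.41 and *Orai3* at 0.22, were not called. Of 15 cytosolic and mitochondrial genes 3 were higher and 8 lower. *Pvalb*, the calcium buffer of fast fibres, was at -11.87 (0.50, 3.91e-08), and the kinases *Camk2a* and *Camk2b* at -4.11 (0.29, 1.85e-06) and -3.71 (0.37, 2.16e-05).

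**Figure D5:**
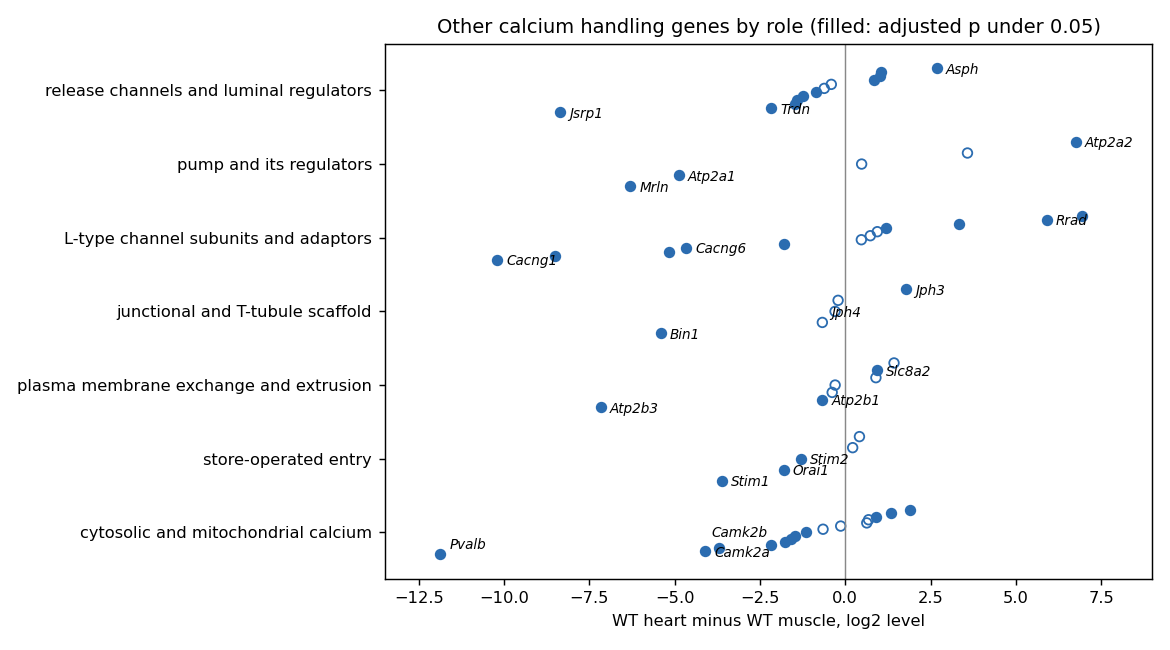
WT heart minus WT muscle for 61 other calcium handling genes (x axis, log2 level) by role (y axis); filled points passed an adjusted p of 0.05, and the 3 genes with the lowest p in each role are named. *Pvalb* stands farthest towards muscle at -11.87, and *Atp2a2* is at 6.76 towards heart.

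Between genotypes, 0 of the list passed the adjusted test in any tissue by limma. At an unadjusted p under 0.05 the counts were 2 of 60 in heart, 4 of 58 in muscle, 2 of 61 in brain and 0 of 53 in liver, beside 7.51%, 2.48%, 2.62% and 2.13% of all probes. The lowest unadjusted p values in heart were those of *S100a1* (-0.88, 0.36, limma p 0.0438) and *Atp2a1* (-0.70, 0.28, limma p 0.0450). In muscle they were those of *Stac2* (limma p 0.0106) and *Cacng1* (-0.72, 0.26, limma p 0.0268). *Stac2*, counted among the 4 of 58, was not well above background in any WT muscle and was at least 4.83-fold higher in the KI/KI muscles. It thus met the filter only through the KI/KI muscles, so its p and fold are no support for a genotype difference. The neuronal list was at 2.11 in the muscle of KI3 and -3.85 to -1.47 in the others, and its part in the *Stac2* level was not tested. The lowest unadjusted p values in brain were those of *Mrln* (1.28, 0.40, limma p 0.0179) and *Cav3* (0.55, 0.18, limma p 0.0219). In liver they were those of *Atp2b2* (1.02, 0.58, limma p 0.121) and *Cacng1* (1.02, 0.58, limma p 0.123).

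For each of the 10 genes, the 3 genes with the most similar levels over the arrays were found among 18556 by Pearson's r, as a description only: the points share 6 mice and fall into 4 tissues, so differences between tissues set most of r. *Jsrp1*, *Il12a* and *Myh4* came nearest to *Ryr1* (r 0.989, 0.982 and 0.979), and *Frmd5*, *Rnf207* and *Tesc* to *Ryr2* (0.979, 0.975 and 0.973). The nearest gene to *Casq1* over 23 arrays was another of the 10, *Cacna1s* (0.984), before *Tnni2*, a fast troponin subunit, and the chloride channel gene *Clcn1*. *Casq2* ran closest to *Gata2*, *Myl2* and *Jam2* (0.982, 0.978 and 0.975), and *Pln* to *Myocd*, *Rrad* and *Tnnt2* (0.991, 0.985 and 0.981). *Slc4a3*, an anion exchanger gene, was nearest to both *Cacna1c* (0.994) and *Slc8a1* (0.966). *Smox* and *Pfkfb4* were nearest to *Jph1* (0.990 and 0.978). *Ckm*, the creatine kinase of muscle, was nearest to *Jph2* (0.984), ahead of *Phtf2* and *Nepn* (0.982 and 0.981).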

How the data were processed

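The authors deposited intensity values, the processed signals of 1-color Agilent arrays (200 ng of total RNA each), which Feature Extraction 12.0.3.1 had background-subtracted and detrended, with no normalization between arrays; median foreground and background intensities came from the same files. The score values deposited by the authors are z-scores within each array, used as an alternative. The study's methods state no test for the arrays.

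Spots flagged as outliers and the 3671 control spots of each array were dropped, and repeated spots of a probe were averaged, leaving 55681 probes. Log2 levels were computed from the deposited signals, minus the 75th percentile of each array, and 28331 probes were named through RefSeq accessions (GRCm38.p6). Where a gene had several probes, that with the highest mean level over all arrays stands for it. Probes well above background on at least 3 arrays of a fit were tested with limma 3.58.1 (R 4.3.3; two-sided, Benjamini-Hochberg over all tested probes): tissue pairs within a genotype over 12 arrays, genotypes within a tissue over 6, and the difference between tissues over 24. Values in parentheses after a difference are its standard error and then the adjusted p, or the unadjusted p where written as limma p. A fold against a group with the probe below background on all arrays is a lower bound, set against the higher of the dimmest signal above background and the probe's own signal on each array. The number of arrays limits the precision.

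The members and the lists were chosen with earlier results of these data known. The text names all 10 members, the 3 genes of each role with the lowest p between WT heart and muscle, the 2 with the lowest p between genotypes in each tissue, and up to 3 genes nearest to each member; those nearest to Cacna1s are not reported here. *Orai2* and *Orai3* were named after their values were seen. The animal numbers in the labels pair the 4 tissues of a mouse; deviations of the same mouse in 2 tissues correlated at -0.21 to 0.26 (median 0.04, 8 of 36 pairs above 0.1), and the mouse was a block in alternatives. The other alternatives were quantile normalization, normexp with an offset of 50 (on median signals, as mean signals are not used here), the z-scores, no filter, a filter on all arrays, the mean over probes, each mouse left out, age, slide, all 24 arrays, and trend and robust eBayes. Keeping outlier spots was added after seeing the data. The procedures were tested on simulated data.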

Additional observations from a re-analysis of the deposited data

How the results depend on the processing

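All 148 recomputed counts between genotypes stayed at 0. For heart minus muscle, 241 of 245 values of single genes kept their direction and their side of the threshold, and the exceptions were all *Jph2*: its WT difference passed with normexp (-1.52, adjusted p 0.00182) and with all 24 arrays (-1.67, 0.0291). With the mouse as a replicate block the counts were 5 higher and 4 lower in WT heart against muscle, 5 and 5 in KI/KI, and 13 and 26 for the calcium list, and the paired fit changed no call of a member, between genotypes (0 in each tissue) or between heart and muscle. The filter on probes above background on all 12 arrays, liver included, left fewer members to test: WT heart against muscle then had 0 higher and 1 lower, heart against brain 1 and 0, heart against liver 1 higher, muscle against brain 1 and 0, muscle against liver 1 and brain against liver 1 higher, KI/KI heart against muscle 2 and 2, and the calcium list 9 higher. With a WT mouse left out, the calcium list had 8 to 13 higher in heart, and brain against liver 0 to 1 lower. With a mouse left out, the paralogue shifts were 22.7 to 23.9 for *Ryr1* over *Ryr2*, 10.5 to 10.7 for *Cacna1s* over *Cacna1c* and 2.99 to 3.32 for *Jph1* over *Jph2*, where 5 mice allow no exact permutation p below 0.0625; with dim signals raised to the lowest level well above background, an alternative added after seeing the data, no pair lost its call; with outlier spots kept, *Casq1* over *Casq2* was 13.0 (n = 6, adjusted exact permutation p 0.03125).

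Genotype differences that changed sign, none of them called in any setting, were, in heart with quantile normalization, *Ryr1* (-0.15), *Ryr2* (0.10) and *Pln* (0.12); with normexp, *Ryr1* (-0.10) and *Pln* (0.0218) in heart and *Ryr1* (-0.16) and *Cacna1c* (-0.0848) in liver; with z-scores *Pln* in heart (0.010); and with the mean over probes *Cacna1c* in heart (-0.15). With a mouse left out, the heart ranges were -0.37 to 0.0831 for *Ryr2*, -0.44 to 0.28 for *Pln*, -0.29 to 0.43 for *Ryr1*, -0.69 to 0.17 for *Slc8a1*, -0.0213 to 0.23 for *Cacna1c* and -0.27 to 0.0366 for *Jph1*; *Slc8a1* in muscle ranged from -0.30 to 0.10 and *Cacna1c* in liver from -0.0105 to 0.56. The cause was not tested. Probes near background, such as *Ryr1* in heart and *Ryr2* in muscle, limit how exactly the largest folds are known.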
